A study of Mus musculus with 12 samples.

Results

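The inflammasome and gasdermin genes of the colon epithelium were followed here as a set of 10: the sensors Nlrp6, Nlrc4 and Aim2, the adaptor Pycard (ASC), the caspases Casp1 and Casp4, the cytokine Il18, and the pore-forming gasdermins Gsdmd, Gsdmc2 and Gsdmc4. The genes were chosen by symbol alone, whatever their level or change, and are 10 of the 24391 genes in the expression tables. All 10 were found and all 10 passed the filter on low values, which kept 12052 genes (at least 1 FPKM in at least 4 libraries). FPKM is the number of sequenced fragments assigned to a gene, scaled to its length and to the library's depth, so levels of different genes can be set side by side.

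The libraries came from mouse colon epithelial cells of the C57BL/6 strain at 18 weeks of age. There were 3 groups with 4 libraries each: control mice, mice given AOM and DSS, and mice given AOM, DSS and curcumin. AOM (azoxymethane) is a carcinogen and DSS (dextran sulfate sodium) injures the colon lining, and together they make a mouse model of colitis-driven colon cancer. Curcumin is a plant polyphenol from turmeric; its dose and schedule are not given in the sources used here. All groups were of 1 strain and no genetic change is named for any. Before the mucosa was scraped off, the proximal colon and any right-sided tumours were cut away, and the scrapings were spun slowly and washed to remove blood cells. It is not stated whether tumours elsewhere were left in, whether animals were pooled, or whether the 4 libraries of a group came from separate animals, so p-values measure the spread between these libraries, which may be technical.

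Inflammasomes are protein platforms that form in the cytosol when a sensor meets a microbial product or a sign of damage. The sensor recruits the adaptor ASC, ASC recruits caspase-1, and caspase-1 cuts pro-IL-18 and gasdermin D, while caspase-4 is set off directly by lipopolysaccharide and cuts gasdermin D as well. The freed end of a gasdermin forms pores in the cell membrane. In the gut lining this pathway is known for expelling infected epithelial cells and for releasing IL-18, and the gasdermin C genes are known as epithelial genes that type 2 cytokines can induce.

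Mice carry 4 neighbouring copies of gasdermin C (Gsdmc, Gsdmc2, Gsdmc3 and Gsdmc4), and both gasdermin C members of the set are among them. Their coding sequences are shown because the copies are so alike that sequencing reads can be hard to assign to 1 of them. These are the first 120 bases of each coding sequence, from the GENCODE M21 transcripts of GRCm38, 5′ to 3′, with capitals at the 15 positions where the 4 copies do not all have the same base:
Gsdmc: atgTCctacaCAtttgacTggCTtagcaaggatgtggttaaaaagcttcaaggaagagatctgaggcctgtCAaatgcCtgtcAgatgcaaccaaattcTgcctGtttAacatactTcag
Gsdmc2: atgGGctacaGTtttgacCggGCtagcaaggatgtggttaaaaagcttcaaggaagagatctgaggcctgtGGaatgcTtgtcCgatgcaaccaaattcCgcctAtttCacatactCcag
Gsdmc3: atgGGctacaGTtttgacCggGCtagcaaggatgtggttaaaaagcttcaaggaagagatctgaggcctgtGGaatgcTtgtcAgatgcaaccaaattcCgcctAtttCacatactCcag
Gsdmc4: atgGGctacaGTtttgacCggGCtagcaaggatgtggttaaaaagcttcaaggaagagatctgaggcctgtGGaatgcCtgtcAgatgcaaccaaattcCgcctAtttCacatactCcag
In this stretch Gsdmc2 differed from Gsdmc4 at 2 bases and Gsdmc3 differed from Gsdmc4 at 1, whereas Gsdmc differed from Gsdmc4 at 13.

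Over the whole coding sequence (1443 bases in Gsdmc2, Gsdmc3 and Gsdmc4, 1407 in Gsdmc), Gsdmc2 and Gsdmc3 were 97.1% identical. Gsdmc2 and Gsdmc4 were 93.7% identical, Gsdmc3 and Gsdmc4 93.8%, and Gsdmc was 86.7% to 87.5% identical to the other copies. The longest run of coding bases common to Gsdmc2, Gsdmc3 and Gsdmc4 was 171 bases, and Gsdmc2 and Gsdmc3 shared a run of 317. Of all distinct 50-base windows of its coding transcripts, Gsdmc2 had 51.3% that also occur in another copy, Gsdmc3 46.0%, Gsdmc4 39.0% and Gsdmc 16.1%. Some stretches do tell the copies apart. The 60 bases of the coding sequence in which Gsdmc2, Gsdmc3 and Gsdmc4 were least alike are shown to mark where reads are specific, with capitals at the 16 positions not shared by all 3 (coding bases 803 to 862 in Gsdmc2 and Gsdmc3, 809 to 868 in Gsdmc4):
Gsdmc2: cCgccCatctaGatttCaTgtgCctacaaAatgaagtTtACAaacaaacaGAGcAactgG
Gsdmc3: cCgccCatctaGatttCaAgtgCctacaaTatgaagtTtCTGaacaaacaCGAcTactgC
Gsdmc4: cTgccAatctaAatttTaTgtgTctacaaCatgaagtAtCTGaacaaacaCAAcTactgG
How the authors assigned reads that match several copies is not given in the sources used here, so the separate levels of Gsdmc2, Gsdmc3 and Gsdmc4 are uncertain.

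The FPKM values could be turned back into whole numbers of reads for all 19233 genes above 0 in any library (tolerance 0.001 reads), which gave 5567988 to 15968416 reads per library. Every member rested on at least 221 reads in each library. The epithelial markers Epcam, Krt8, Vil1, Muc2 and Cdx2 were present throughout, and none of the 12 colon epithelium markers was below 1 FPKM in all libraries. Their summed level was 8570 to 13900 FPKM in control, 8480 to 10500 in AOM/DSS and 8880 to 13900 in the curcumin group. RNA of other cells was present in all groups. Red blood cell markers summed to 85.6 to 473 FPKM in control, 22.5 to 464 in AOM/DSS and 38.2 to 55.3 in the curcumin group. Among them, Hbb-b2 and Hbb-bt had the same value in every library. Hbb-b1 and Hbb-bs were nearly equal, as were Hba-a1 and Hba-a2. Such entries are not separate measurements, and the sum may count the same reads more than once. B and plasma cell markers summed to 174 to 235, 228 to 286 and 191 to 251 FPKM in the 3 groups. The 13 macrophage and dendritic cell markers summed to 11.8 to 56.5 FPKM in control, 21.6 to 71.3 in AOM/DSS and 6.5 to 35.3 in the curcumin group, and 3 of the 13 stayed below 1 FPKM in every library. The 5 libraries control 0, AOM/DSS 0 and 1, and curcumin 0 and 1 read GC-rich genes higher than the other 7 did. The cause of that split is not recorded in the labels, so values within each set of libraries are given beside the results they touch.

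All 10 genes were expressed in untreated epithelium, and their levels spanned a wide range. Gsdmc4 led with 736.6 ± 77.82 FPKM (SD, n = 4) in control, above 99.2% of the tested genes. Gsdmc2 followed at 331.3 ± 28.97, then Il18 at 217.3 ± 45.37, Casp1 at 159.1 ± 37.82 and Gsdmd at 153.3 ± 11.27. Pycard stood at 90.76 ± 8.204 and Nlrp6 at 88.47 ± 11.19. Aim2 at 25.72 ± 3.693, Casp4 at 23.67 ± 6.349 and Nlrc4 at 15.27 ± 2.401 were the lowest, Nlrc4 being above 59.9% of the tested genes. The control libraries of Il18 and Casp1 overlapped, as did those of Casp1 and Gsdmd, of Pycard and Nlrp6, and of Aim2 and Casp4, so the order within each of these pairs is not larger than the spread. The order of the group means was the same in AOM/DSS except that Casp4 stood above Aim2, and the same in the curcumin group without exception.

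**Figure D1:**
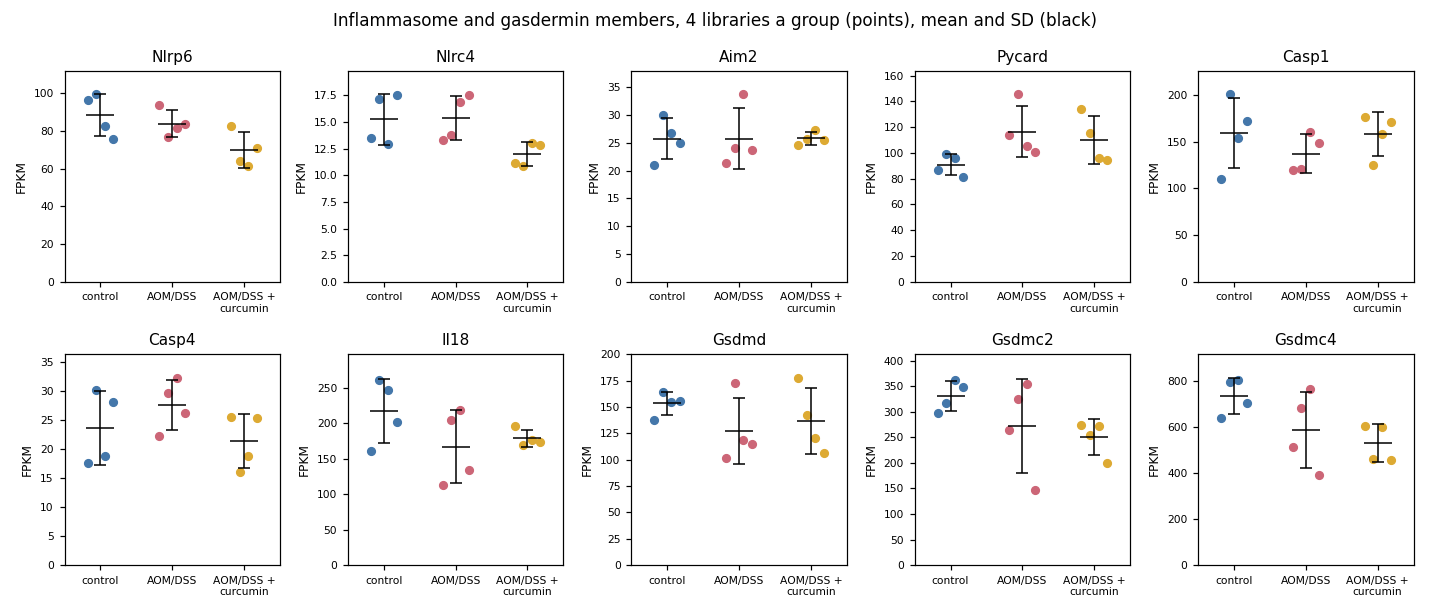
FPKM of the 10 inflammasome and gasdermin genes, each panel with its own linear axis from 0; points are the 4 libraries of each group, the black bar and whiskers are the mean and SD. The groups overlap in most panels; Pycard in AOM/DSS (101.0 to 145.6) lies above all control libraries, and Gsdmc4 in the curcumin group (457.5 to 607.4) lies below all control libraries.

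The question for each comparison was whether AOM/DSS changed the pathway's transcripts and whether curcumin changed them on top of AOM/DSS. In limma's moderated test on log2(FPKM + 1) over all 12052 genes, none of the 10 genes passed an adjusted p of 0.05 (Benjamini-Hochberg) in any of the 3 comparisons. For AOM/DSS against control, 0 of 10 members were called and 1.27% of all tested genes were. For curcumin against AOM/DSS the count was 0 of 10 and the background 1.08%, and for curcumin against control 0 of 10 and 0.141%. At an unadjusted p under 0.05, limma gave 1, 1 and 3 members, against 13.5%, 14.5% and 12.2% of all tested genes. The lowest adjusted p was 0.275 and the highest 0.992.

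The precision allows a statement on size. In the fit with all 12 libraries, the 95% interval of the difference lay within 2-fold in either direction for all 30 member comparisons. The widest bounds were 0.549-fold to 1.59-fold for AOM/DSS against control, 0.576-fold to 1.52-fold for curcumin against AOM/DSS, and 0.533-fold to 1.5-fold for curcumin against control. The added 1 FPKM makes changes of low genes look smaller than they are. The median log2 difference of the 10 genes was -0.13 for AOM/DSS against control (0.02 over all tested genes), -0.07 for curcumin against AOM/DSS (-0.01 over all) and -0.22 for curcumin against control (0.01 over all). In these means, 7 of 10 were lower in AOM/DSS than in control, 6 of 10 lower in curcumin than in AOM/DSS, and 7 of 10 lower in curcumin than in control. The 3 comparisons share libraries, so these counts are not independent of each other.

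Some members had groups that did not overlap. In AOM/DSS against control this held for 1 of 10, where 6.02% of all tested genes had groups that did not overlap. In curcumin against AOM/DSS it held for 1 of 10 (9.22% of all tested genes), and in curcumin against control for 2 of 10 (8.26%). For these 4 the exact permutation test (two-sided, 70 splits of 8 libraries) gave p = 0.0286, the smallest value that 4 libraries against 4 allow. Groups that do not overlap always give this value.

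**Figure D2:**
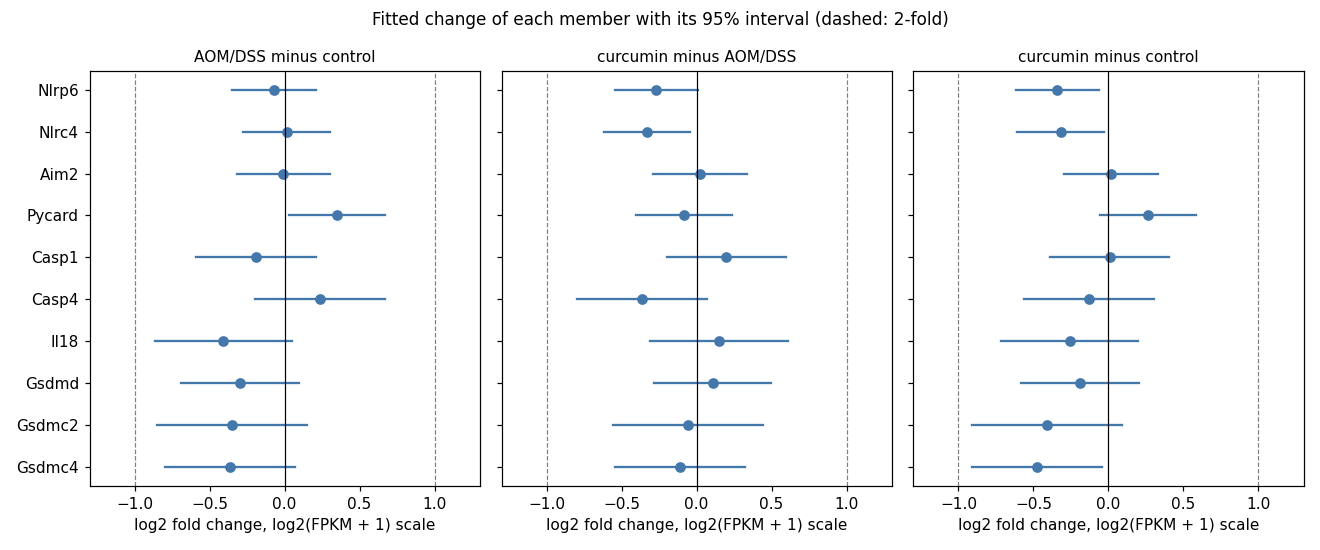
Fitted log2 difference (log2(FPKM + 1) scale) of the 10 genes in the 3 comparisons; points are limma estimates, horizontal lines their 95% intervals, and dashed lines mark 2-fold. Every interval lies between the dashed lines, and the estimates range from -0.47 (Gsdmc4, curcumin minus control) to 0.35 (Pycard, AOM/DSS minus control).

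Among the sensors, Nlrp6 forms an inflammasome in the gut lining and takes part in goblet cell mucus release. Its FPKM was 96.21, 99.43, 82.36 and 75.90 in the control libraries, 93.70, 76.82, 81.26 and 83.64 in AOM/DSS, and 82.72, 64.08, 61.27 and 70.73 in the curcumin group. Control and AOM/DSS libraries were mixed, and 3 of the 4 curcumin libraries fell below all of both other groups. Nlrp6 differed by -0.07 (log2, SE 0.129) between AOM/DSS and control, with a limma adjusted p of 0.851. Curcumin against AOM/DSS gave -0.27 (adjusted p = 0.361) and curcumin against control gave -0.34 (adjusted p = 0.316), a fold between 0.651 and 0.957 in its 95% interval. The interval excluded no change while the adjusted p did not pass.

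Nlrc4 assembles with the NAIP proteins, which recognise bacterial flagellin and secretion-system parts. Nlrc4 read 13.47, 17.14, 12.93 and 17.53 FPKM in control, 13.35, 13.81, 16.85 and 17.50 in AOM/DSS, and 11.11, 10.91, 13.02 and 12.87 in the curcumin group. All 4 curcumin libraries were below all AOM/DSS libraries, and 3 of the 4 were below all control libraries. The control and AOM/DSS means, 15.27 and 15.38 FPKM, were close, with a log2 difference of 0.01 (limma adjusted p = 0.979). Curcumin against AOM/DSS gave -0.33 (SE 0.134, fold 0.651 to 0.971, adjusted p = 0.275), which did not pass. Within the GC-rich libraries Nlrc4 differed by -0.28 between curcumin and AOM/DSS, and within the others by -0.38. The 7 tested macrophage and dendritic cell markers were all lower in the same comparison, with a median of -1.03 and 0 of 7 called. Most other lists were lower too, with medians of -1.08 for fibroblasts (3 of 3 tested), -1.44 for red blood cells (7 of 7), -0.78 for B and plasma cells (7 of 8) and -0.48 for T and NK cells (4 of 4), again with 0 called. The 7 red blood cell entries include pairs with equal or nearly equal values and are not 7 separate measurements. The part of these cells in the Nlrc4 value was not tested. In bulk samples such as these, fewer cells of a type and less RNA per cell cannot be told apart.

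Aim2 senses double-stranded DNA in the cytosol. Its FPKM was 21.11, 29.96, 26.80 and 25.03 in control, 21.33, 24.07, 33.85 and 23.78 in AOM/DSS, and 24.59, 25.78, 27.40 and 25.55 in the curcumin group. The groups of Aim2 overlapped in all 3 comparisons and their means lay at 25.72, 25.76 and 25.83 FPKM. The largest of its log2 differences was 0.02 (curcumin against AOM/DSS), and the 95% intervals of the 3 comparisons ran from 0.801-fold to 1.26-fold. The sign of the Aim2 differences changed with the scaling, so no direction is given.

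The adaptor Pycard links the sensors to caspase-1 by binding both. Pycard was at 86.44, 98.96, 96.17 and 81.45 FPKM in control, 114.0, 145.6, 105.6 and 101.0 in AOM/DSS, and 134.4, 115.2, 96.08 and 94.39 in the curcumin group. All 4 AOM/DSS libraries lay above all control libraries, and the curcumin libraries overlapped both other groups. AOM/DSS against control gave 0.35 (log2, SE 0.148, fold 1.02 to 1.59), with an unadjusted p of 0.036 and a limma adjusted p of 0.323, so the difference did not pass. In AOM/DSS the mean of Pycard was 129.8 FPKM in the GC-rich libraries and 103.3 in the others, and in the curcumin group 124.8 and 95.24. Control did not follow this, with 86.44 in its 1 GC-rich library and a mean of 92.19 in the others. Within the GC-rich libraries AOM/DSS minus control was 0.57 (1 control library), and within the others it was 0.17. The share of the GC split in the Pycard value was not tested beyond these values.

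The caspases stood far apart in level, and neither passed the test in any comparison. Casp1, which cuts pro-IL-18 and gasdermin D, read 110.3, 200.7, 153.9 and 171.6 FPKM in control, 119.5, 120.6, 160.4 and 148.3 in AOM/DSS, and 176.7, 124.5, 158.4 and 171.3 in the curcumin group. Casp1 libraries overlapped in all 3 comparisons, and its log2 differences were -0.19, 0.20 and 0.01 for AOM/DSS against control, curcumin against AOM/DSS and curcumin against control. The limma adjusted p of Casp1 was 0.688 or higher. Casp4, the lipopolysaccharide-sensing caspase, read 17.64, 30.16, 18.84 and 28.05 FPKM in control, 22.24, 29.63, 32.26 and 26.17 in AOM/DSS, and 25.47, 16.10, 18.74 and 25.26 in the curcumin group. Its groups also overlapped, with a log2 difference of 0.24 for AOM/DSS against control (limma adjusted p = 0.66) and -0.36 for curcumin against AOM/DSS (adjusted p = 0.437).

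The ratio of Casp1 to Casp4 within a library separated the groups more than either gene did. In control the ratio of FPKM was 6.25, 6.65, 8.17 and 6.12, in AOM/DSS 5.37, 4.07, 4.97 and 5.66, and in the curcumin group 6.94, 7.73, 8.46 and 6.78. Every AOM/DSS library had a lower Casp1 to Casp4 ratio than every library of the other groups, and the curcumin libraries overlapped the controls. The means were 6.8 ± 0.942, 5.02 ± 0.692 and 7.48 ± 0.776 (SD, n = 4). The log2 difference was -0.44 for AOM/DSS against control and 0.58 for curcumin against AOM/DSS. Each had an exact permutation p of 0.0286, the smallest possible, which groups that do not overlap always give. This ratio was singled out after its values were seen. It is 1 of 45 ratios between the 10 genes, of which 6 (13.3%), 3 (6.67%) and 7 (15.6%) had groups that did not overlap in the 3 comparisons. The 45 ratios share their 10 genes and were not adjusted for their number. The share over ratios of all tested genes was not computed, so whether these shares are high is not known.

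Of the ratios with groups that did not overlap, 3 of 6 in AOM/DSS against control held Pycard. The count was 0 of 3 in curcumin against AOM/DSS and 5 of 7 in curcumin against control. Casp4 was in all the other ratios of AOM/DSS against control, those with Casp1, Il18 and Gsdmc4. In curcumin against AOM/DSS it was in those with Casp1 and Il18. Each of the genes enters an equal number of ratios. Against control, the Pycard to Gsdmc4 ratio was higher by 0.72 (log2) in AOM/DSS and by 0.74 in the curcumin group. The Pycard to Gsdmd ratio was higher by 0.65 and 0.46, and the Nlrp6 to Pycard ratio was lower, at -0.42 and -0.61. The Casp4 to Il18 ratio was higher by 0.66 in AOM/DSS than in control, and curcumin against AOM/DSS gave -0.53. Each of these had an exact permutation p of 0.0286. They were listed because their groups did not overlap, which fixes that p, so it adds no support. A ratio shows unequal change of its 2 genes and does not say which of them changed.

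Il18 encodes the cytokine that caspase-1 releases, and epithelial cells of the gut are known as a main source of it. Il18 read 161.0, 260.3, 247.0 and 200.8 FPKM in control, 112.4, 203.6, 218.0 and 133.5 in AOM/DSS, and 195.8, 169.0, 175.8 and 173.9 in the curcumin group. The AOM/DSS libraries fell into a low and a high pair, 2 of them below all controls, while the curcumin libraries lay close together. The coefficient of variation was 20.9% in control, 31.0% in AOM/DSS and 6.6% in the curcumin group. AOM/DSS against control gave -0.41 (log2, SE 0.212, limma adjusted p = 0.433), curcumin against AOM/DSS 0.15 (adjusted p = 0.815) and curcumin against control -0.26 (adjusted p = 0.653). Without AOM/DSS replicate 0, the log2 difference between curcumin and AOM/DSS was -0.02, and it was above 0 without any other single library. Within the GC-rich libraries (1 control library) curcumin against control gave 0.17 and within the others -0.42.

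Gsdmd encodes gasdermin D, the pore-former cut by both caspases of the set. Gsdmd read 137.7, 164.5, 154.9 and 156.1 FPKM in control, 101.8, 173.0, 118.6 and 115.0 in AOM/DSS, and 177.9, 142.5, 120.2 and 106.1 in the curcumin group. In AOM/DSS 3 of 4 libraries were below all controls and the remaining one was above them all. The log2 differences were -0.29 (limma adjusted p = 0.525), 0.11 (adjusted p = 0.852) and -0.19 (adjusted p = 0.713) for AOM/DSS against control, curcumin against AOM/DSS and curcumin against control. The curcumin libraries that read GC-rich genes higher gave 142.5 and 177.9 FPKM, and the others 106.1 and 120.2. In control the GC-rich library was the lowest (137.7), and in AOM/DSS the GC-rich libraries (101.8 and 173.0) lay on either side of the others (115.0 and 118.6).

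Gsdmc4 and Gsdmc2 had the highest levels of the set, and their means were lower in both treated groups than in control without passing the test. Gsdmc4 read 640.1, 795.4, 803.9 and 707.2 FPKM in control, 513.0, 681.9, 765.4 and 392.8 in AOM/DSS, and 607.4, 462.7, 602.1 and 457.5 in the curcumin group. All 4 curcumin libraries were below all control libraries, and 2 of 4 AOM/DSS libraries were. Gsdmc4 differed by -0.36 (log2, SE 0.2, limma adjusted p = 0.464) between AOM/DSS and control, by -0.11 (adjusted p = 0.863) between curcumin and AOM/DSS, and by -0.47 (fold 0.533 to 0.971, adjusted p = 0.361) between curcumin and control. Gsdmc2 read 297.9, 317.3, 361.6 and 348.4 FPKM in control, 264.0, 325.3, 354.7 and 146.5 in AOM/DSS, and 274.0, 255.4, 272.6 and 200.2 in the curcumin group. Here too the curcumin libraries were all below the controls, with a log2 difference of -0.41 (fold 0.533 to 1.06, limma adjusted p = 0.504), and AOM/DSS against control gave -0.35 (adjusted p = 0.552). None of these differences passed.

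The AOM/DSS value of both genes depended on 1 library. AOM/DSS replicate 3 was the lowest of all 12 libraries for Gsdmc4 and for Gsdmc2. Without it, AOM/DSS against control was -0.19 for Gsdmc4 and -0.08 for Gsdmc2, and curcumin against AOM/DSS was -0.29 and -0.33. The same library stood apart most by fibroblast markers, at 78.4 FPKM where no other library passed 21.7. Of its 78.4 FPKM, 55.94 came from Vim alone. That library was also the highest for smooth muscle markers (23 FPKM) and for macrophage and dendritic cell markers (71.3). AOM/DSS replicate 2 held nearly as much of the macrophage and dendritic cell markers (65.9) and had the highest Gsdmc4 and Gsdmc2 of its group. Neutrophil markers were at 11.3 FPKM in AOM/DSS replicate 3 and 13.2 in replicate 1. The part of these cells in the gasdermin values was not tested. Within the GC-rich libraries (1 control library) curcumin against control gave -0.27 for Gsdmc4 and -0.17 for Gsdmc2, and within the others -0.55 for both.

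The remaining gasdermin C copies were also lowest in AOM/DSS replicate 3. Gsdmc3 read 209.7, 172.1, 186.7 and 228.4 FPKM in control, 150.4, 120.7, 138.2 and 57.52 in AOM/DSS, and 148.4, 156.6, 160.4 and 108.1 in the curcumin group. The Gsdmc3 libraries of both treated groups were all below the controls. Its AOM/DSS difference of -0.85 (log2, SE 0.254, fold 0.38 to 0.814) had an unadjusted p of 0.00543 and a limma adjusted p of 0.142, which did not pass, and without AOM/DSS replicate 3 it was -0.54. Curcumin against control gave -0.48 for Gsdmc3 (limma adjusted p = 0.468). Gsdmc was far lower, at 16.86 ± 1.126 FPKM in control, 12.96 ± 4.151 in AOM/DSS and 12.06 ± 1.962 in the curcumin group. Its differences were -0.41 (adjusted p = 0.394) for AOM/DSS and -0.46 (adjusted p = 0.364) for curcumin against control.

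Added up, the 4 copies gave 1280 ± 86.8 FPKM in control, 991 ± 292 in AOM/DSS and 939 ± 132 in the curcumin group (SD, n = 4). The ratio of the 2 members of the set within that sum did not differ beyond the spread. The Gsdmc4 to Gsdmc2 ratio was 2.23 ± 0.204, 2.22 ± 0.32 and 2.13 ± 0.218, with exact permutation p values of 0.943, 0.714 and 0.543 in the 3 comparisons. The share of Gsdmc3 was 15.6% ± 2.55 in control, 11.7% ± 2.9 in AOM/DSS and 15.3% ± 1.73 in the curcumin group. The Gsdmc3 to Gsdmc2 ratio was 0.605 ± 0.09, 0.431 ± 0.0932 and 0.571 ± 0.036, and the exact permutation p was 0.0857 for AOM/DSS against control and for curcumin against AOM/DSS. The groups of that ratio overlapped, since AOM/DSS replicate 0 (0.57) lay among the other groups.

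**Figure D3:**
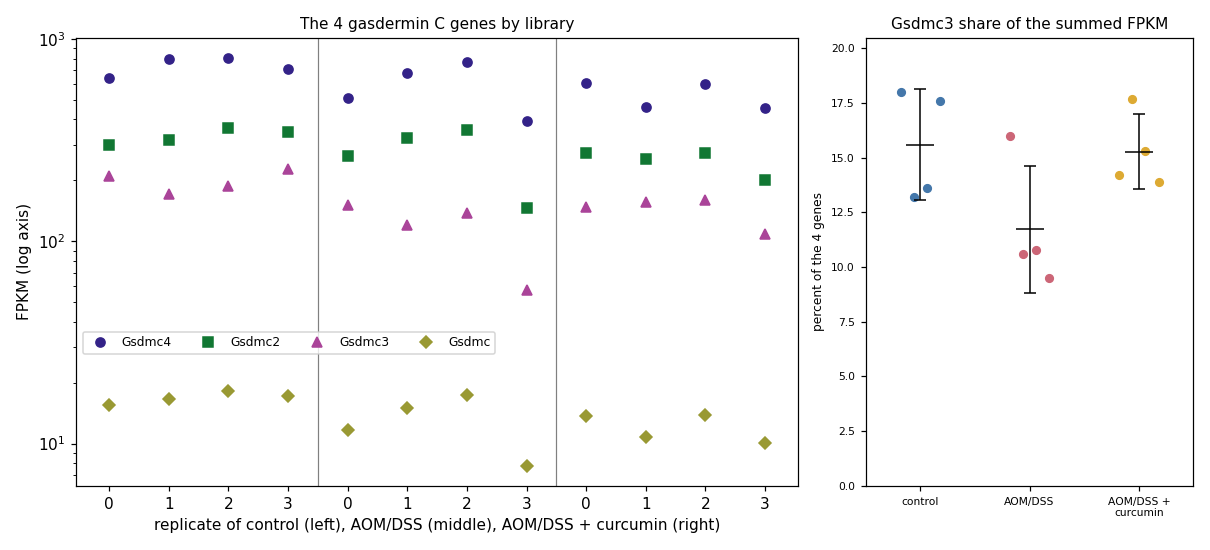
Left, FPKM (log axis) of Gsdmc4, Gsdmc2, Gsdmc3 and Gsdmc in each of the 12 libraries, ordered by group and replicate number; right, Gsdmc3 as a percent of the summed FPKM of the 4 copies, with mean and SD in black. All 4 copies are lowest in AOM/DSS replicate 3, and 3 of 4 AOM/DSS libraries have a Gsdmc3 share of 10.8% or less while the lowest share elsewhere is 13.2%.

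The other gasdermins were low or near 0. Dfna5 (gasdermin E, which caspase-3 cuts) stood at 3.995 ± 0.5064 FPKM in control, 5.007 ± 1.881 in AOM/DSS and 4.629 ± 0.6267 in the curcumin group, with a limma adjusted p of 0.656 or higher. Gsdma had group means of 0.5159, 0.849 and 0.4611 FPKM and did not pass the filter. Gsdma2 and Dfnb59 did not exceed 0.08039 and 0.05502 FPKM in any library, and Gsdma3 was listed at 0 in all.

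Over the 12 libraries, Pearson's r of log2(FPKM + 1) between members had a median of 0.272 in 45 pairs, from -0.429 (Nlrc4 and Pycard) to 0.917 (Gsdmc2 and Gsdmc4). Over all libraries 2 pairs exceeded 0.7, Gsdmc2 with Gsdmc4 and Il18 with Gsdmc4 (0.793). With each group's mean taken out, 6 pairs exceeded 0.7: these 2 and Pycard with Gsdmd (0.865, from 0.302), Casp1 with Casp4 (0.824), Aim2 with Il18 (0.797) and Nlrc4 with Casp1 (0.719). These are descriptions over libraries that share depth and base composition, and Gsdmc2 and Gsdmc4 also share sequence.

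**Figure D4:**
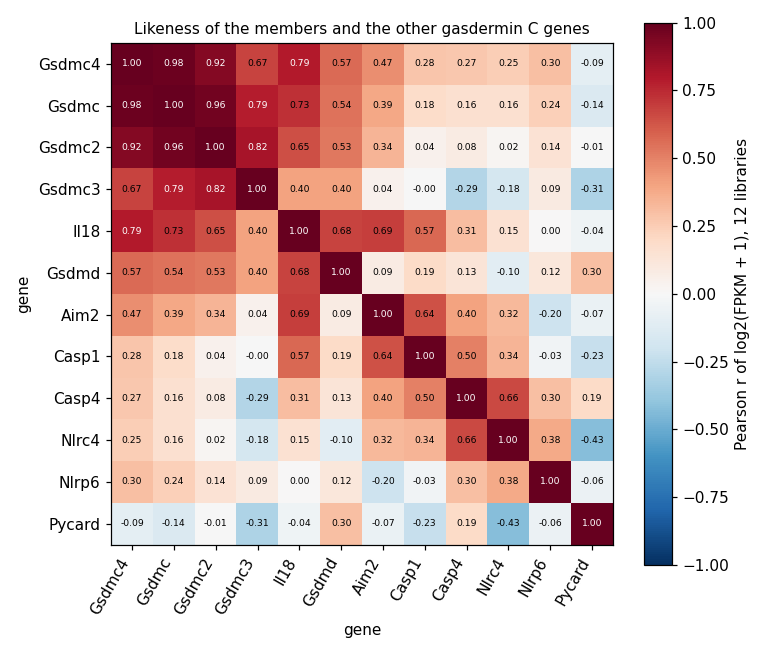
Pearson's r of log2(FPKM + 1) over 12 libraries between the 10 genes and the other gasdermin C copies Gsdmc and Gsdmc3; both axes list genes, and colour and number give r. The gasdermin C copies range from 0.672 (Gsdmc3 with Gsdmc4) to 0.979 (Gsdmc with Gsdmc4) with each other, and Il18 reaches 0.793 with Gsdmc4. Pycard is near or below 0 with most other members, as low as -0.429 with Nlrc4.

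Outside the set, the tested genes most like each member were found by the same r. Nlrc4 was closest to Tlr4, the lipopolysaccharide receptor (r = 0.956), and to Tnfsf15, the cytokine TL1A (0.938). Casp1 was closest to Atp6v1d, a proton pump subunit (0.961), and Ppp2ca, the catalytic subunit of protein phosphatase 2A (0.958). Pycard was closest to Nme2, a nucleoside diphosphate kinase (0.949). Gsdmc4 and Gsdmc2 were both closest to Gsdmc (0.979 and 0.963), followed by Stambpl1 (0.871 and 0.918), a deubiquitinase.

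For Casp4 the closest genes were Actr1a (0.925) and Zbtb7c (0.899), for Gsdmd Stk25 and Ap5s1 (both 0.918), and for Il18 Mpi (0.912) and Anxa3 (0.9). Aim2 was closest to Ttpal (0.891) and Stk38 (0.89). The weakest best match was that of Nlrp6, with Gm24572 (0.831) and Mon1b (0.828), and Gm24572 did not exceed 2.32 FPKM. With each group's mean taken out, r was 0.959 for Nlrc4 with Tlr4 and 0.731 for Nlrp6 with Gm24572. Each best match is the highest of about as many correlations as there are tested genes, over 12 libraries.

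The other genes of the pathway were counted in lists. Of 20 other sensors, 9 were tested and 2 were called lower in AOM/DSS than in control, where 0.813% of all tested genes were called lower. Of 17 caspases and death domain partners, 15 were tested and none was called in any of the 3 comparisons. Of 17 IL-1 family genes in the files, 10 were tested and none was called. Of 23 regulators and triggers, 20 were tested and 1 was called lower in AOM/DSS. Of 12 type 2 and tuft cell genes, 9 were tested and 1 was called higher in AOM/DSS, where 0.456% of all tested genes were called higher. No gene of these lists was called in either comparison of the curcumin group. The list medians for AOM/DSS against control were -0.12 for sensors, 0.003 for caspases and partners, 0.03 for the IL-1 family, -0.005 for regulators and 0.23 for type 2 and tuft genes, beside 0.02 over all tested genes.

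The sensors called lower were Nlrp1b, whose product is set off by bacterial proteases, and Nlrp10, a family member without the ligand-sensing repeats. Nlrp1b read 8.289, 8.078, 7.74 and 9.576 FPKM in control, 5.125, 6.022, 6.060 and 5.221 in AOM/DSS, and 6.486, 6.148, 6.390 and 5.855 in the curcumin group. The log2 difference of Nlrp1b between AOM/DSS and control was -0.51 (SE 0.104, limma adjusted p = 0.0354). Nlrp10 read 4.4, 4.392, 4.639 and 6.606 FPKM in control, 2.296, 3.188, 3.325 and 1.957 in AOM/DSS, and 3.431, 3.402, 3.762 and 3.655 in the curcumin group, with a difference of -0.71 (SE 0.155, limma adjusted p = 0.0486). The curcumin libraries of both genes were also all below the controls, without passing the test (limma adjusted p = 0.166 and 0.351). Nlrp1b belongs to a family with related copies such as Nlrp1a; how far reads could be split between them was not tested.

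Irf2, a transcription factor known to drive Gsdmd transcription, also fell. Irf2 read 63.42, 75.23, 72.67 and 69.71 FPKM in control, 51.19, 52.52, 53.94 and 46.77 in AOM/DSS, and 51.87, 54.43, 49.48 and 51.39 in the curcumin group. Both treated groups were entirely below control, by -0.45 (SE 0.0959, limma adjusted p = 0.0424) in AOM/DSS and by -0.43 (adjusted p = 0.101) in the curcumin group. Gsdmd in the same libraries differed by -0.29 and -0.19, neither of which passed.

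Il4ra, the receptor chain through which IL-4 and IL-13 act, rose in AOM/DSS. It read 4.063, 4.6, 3.520 and 5.576 FPKM in control, 6.301, 9.750, 12.39 and 13.17 in AOM/DSS, and 5.830, 4.702, 4.163 and 5.464 in the curcumin group. The AOM/DSS libraries were above all others, with a log2 difference of 1.04 (SE 0.198, limma adjusted p = 0.0262), and curcumin against AOM/DSS gave -0.88 (adjusted p = 0.0553). Il4 and Il13 themselves were listed at 0 in all libraries. The gasdermin C genes, known as targets of these cytokines, had lower means in AOM/DSS than in control (588.3 against 736.6 FPKM for Gsdmc4), and no difference of theirs passed. Macrophage and dendritic cell markers were higher in AOM/DSS as well (7 of 7 tested, median 0.53, 0 called), as were those of T and NK cells (4 of 4, median 0.40, 0 called) and of B and plasma cells (8 of 8, median 0.25, 0 called). The part of these cells in the Il4ra value was not tested.

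These 4 calls lay close to the threshold, and each was lost when some of the libraries were left out singly. Without single libraries, Nlrp1b lost its call in 8 of 12 cases (control 0, 1 or 3, AOM/DSS 0 or 3, curcumin 1, 2 or 3), with adjusted p from 0.0557 to 0.138 and log2 differences from -0.53 to -0.45. Nlrp10 lost it in 10 of 12 (all but AOM/DSS 1 or 2), with adjusted p from 0.0586 to 0.16 and differences from -0.75 to -0.59. Irf2 lost it in 10 of 12 (all but control 0 or AOM/DSS 2), with adjusted p from 0.0512 to 0.134 and differences from -0.46 to -0.41. Il4ra lost it in 4 of 12 (control 0, 1 or 2, or AOM/DSS 3), with adjusted p from 0.0505 to 0.0777 and differences from 0.92 to 1.05. With each library scaled to a common sum, the limma adjusted p was 0.102 for Nlrp1b, 0.0813 for Nlrp10 and 0.0643 for Irf2, and Il4ra kept its call. With only control and AOM/DSS in the fit, all 4 lost the call (0.134, 0.15, 0.137 and 0.092). Without a filter on low values Nlrp10 (0.0852) and Il4ra (0.0549) lost it, and with limma voom on the recovered reads Irf2 did (0.0632). The directions stayed the same in all of these.

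**Figure D5:**
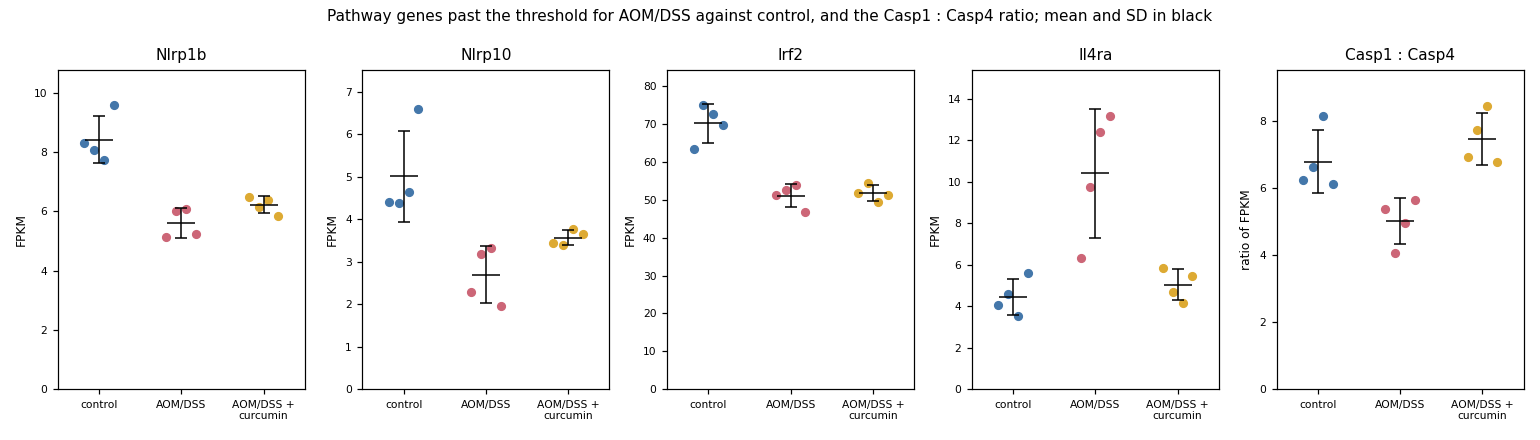
FPKM of the 4 pathway genes past the threshold for AOM/DSS against control (Nlrp1b, Nlrp10, Irf2, Il4ra) and, in the last panel, the ratio of Casp1 to Casp4 FPKM; points are libraries, black marks the mean and SD, axes start at 0. Nlrp1b, Nlrp10 and Irf2 are lower in AOM/DSS than in every control library, Il4ra is higher, and the Casp1 to Casp4 ratio is lowest in AOM/DSS (4.07 to 5.66).

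In each other list, the tested gene with the largest mean change over the 3 comparisons did not pass. Zbp1, a sensor of Z-form nucleic acids, had 8.781 FPKM in the curcumin group and 18.41 in AOM/DSS, a log2 difference of -1.02 (limma adjusted p = 0.131) with all 4 curcumin libraries below AOM/DSS. Irak2, a kinase below the IL-1 and IL-18 receptors, had 14.91 FPKM in AOM/DSS and 24.26 in control, a difference of -0.67 (adjusted p = 0.0892) with all 4 libraries below control. Tlr2, a receptor for bacterial lipoproteins, had 14.11 against 4.592 FPKM in the same groups, a difference of 1.20 (adjusted p = 0.119) with all 4 above control. AOM/DSS replicate 3 alone had 31.05 FPKM of Tlr2, and without it the difference was 0.75. Retnlb, a goblet cell protein induced by type 2 cytokines, had 92.01 against 30.05 FPKM, a difference of 2.64 (adjusted p = 0.196), and its libraries overlapped. Without control replicate 1, Retnlb passed (3.64, adjusted p = 0.0195).

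Several genes known from inflammasomes of myeloid cells, named here after their values were seen, were low or near 0. Nlrp3 had group means of 0.004459 FPKM in control, 0.0394 in AOM/DSS and 0 in the curcumin group. Il1b, the other main caspase-1 substrate among cytokines, had means of 0.2709, 1.223 and 0.1144 FPKM and did not pass the filter. Its AOM/DSS libraries ran from 0.1536 to 2.866 FPKM. The receptor genes for IL-18, Il18r1 and Il18rap, stayed at means of 0.1814 FPKM or below.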

How the data were processed

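RNA-seq libraries of mouse colon epithelial scrapings (12 libraries, 4 per group, grouped by the labels) were analysed from the FPKM values the authors deposited, 1 table per library. Per the submitters' processing notes, the genome build was mm9 and the tools named are featureCounts 1.5.1, TopHat2 2.1.1 with Bowtie2 2.2.6, DESeq2 1.14.1 in R 3.4.0, and Picard. The annotation, strand setting and treatment of reads matching several genes are not given in the sources used here. The depth factors recovered from the deposited FPKM values were proportional, across the 12 libraries, to median-of-ratios size factors of the recovered reads rather than to library totals, so the values rest on most genes not differing between libraries.

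Values were analysed as log2(FPKM + 1), for genes with at least 1 FPKM in at least 4 libraries, with limma 3.58.1 in R 4.3.3 (1 model over all 12 libraries, intensity trend, Benjamini-Hochberg over 12052 genes, threshold 0.05). Exact permutation tests were two-sided and used scipy 1.17.1. The limma script was tested on simulated data. Whole reads recovered from the FPKM steps gave the depth and a limma voom alternative. GC content from the reference transcripts matched 11967 tested genes (99.3%) and was used only to describe libraries and in alternatives. Gasdermin C sequences were compared with Biopython 1.88.

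The members, lists and tests were chosen with earlier results of these data known. Named genes are the 10 members, every pathway gene past the threshold, the other gasdermins, the gene of each list with the largest mean absolute change, and the 2 tested genes most like each member, of which 1 is not reported here. Alternatives covered pseudocount, filter, scaling, trend, replicate block, GC group, the groups fitted and each library left out. Fits on the GC-rich or the other libraries alone were added after seeing the data. No coordinates are given, since the reference transcripts used are of GRCm38 and the files of mm9.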

Additional observations from a re-analysis of the deposited data

Results flagged for a closer look

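Over 24 named genes, 70 groups of 4 libraries were checked. In 9 of them the highest library was set apart from the other 3 by more than Dixon's 95% critical value. Chance flags about 1 in 20 where values are normally distributed, which values near 0 are not. None of the 30 groups of the 10 inflammasome and gasdermin genes was flagged. Nlrp10 reached 6.606 FPKM in control replicate 3, where the other controls were 4.392 to 4.639. Tlr2 reached 6.0 FPKM in control replicate 1 and 31.05 in AOM/DSS replicate 3, the library with the most macrophage and dendritic cell marker RNA (71.3 FPKM). Retnlb reached 102.1 FPKM in control replicate 1, against 2.428 to 8.656 in the other controls. Gsdma reached 2.727 FPKM in AOM/DSS replicate 3, against 0.1495 to 0.2959 in the other AOM/DSS libraries. For Gsdma2 and Dfnb59 a single library of AOM/DSS (0.08039 and 0.05502 FPKM) and a single library of the curcumin group (0.03616 and 0.05095 FPKM) was above 0. Each of these values rested on 1 or 2 reads. A group whose other libraries are at 0 is flagged whatever the size of the remaining value.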

How the results depend on the processing

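None of the 10 members was called in any comparison under the 26 alternatives run. Of 780 member values under these alternatives, 732 kept their direction, 48 changed sign and 0 passed the threshold, the lowest adjusted p being 0.108. The counts over all genes moved more, from 153 (AOM/DSS against control), 130 (curcumin against AOM/DSS) and 17 (curcumin against control). They were 54 and 85 in the first 2 when only the groups compared were fitted, and 238, 272 and 40 with the GC group as a covariate. The GC-rich libraries alone gave 7, 8 and 0, and the others alone 4, 1 and 0, with fewer libraries in each fit. For curcumin against control, a pseudocount of 0.1 gave 11, no filter 7 and limma voom on the recovered reads 27; voom gave 170 and 144 in the other comparisons. Leaving out 1 library gave 53 to 201, 48 to 149 and 4 to 35. The cause was not tested.

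The labels do not tie the replicate numbers to a batch or animal. Deviations of same-numbered libraries correlated from -0.3327 to 0.4564 over 12 pairs, and 4 of 12 libraries were most like a library of their own number. Both ends of that range were pairs with a control library. Between AOM/DSS and curcumin the values for replicates 0 to 3 were 0.04, 0.35, 0.30 and 0.36. In both of these groups replicates 0 and 1 were the GC-rich libraries. What the numbers share was not tested. With a replicate block the counts were 82, 86 and 2, and with the block and the GC group 1 for curcumin against control; members stayed at 0. The block took the adjusted p of Nlrp1b to 0.0833, of Nlrp10 to 0.092 and of Irf2 to 0.0785, and Il4ra kept its call. With the block and the GC group, Nlrp1b (0.0893), Nlrp10 (0.0912), Irf2 (0.105) and Il4ra (0.0618) all missed the threshold.

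Some directions changed. For AOM/DSS against control, Nlrp6 was 0.02532 with the block and GC group, Nlrc4 -0.01113 with quantile normalization, Casp1 0.01356 with the block and GC group and 0.1206 in the GC-rich libraries, and Zbp1 -0.4699 in the GC-rich libraries. Aim2 was 0.01546 with a common sum, 0.05633 with voom, 0.04998 with the GC group, 0.07808 with the block and GC group, and 0.09808 and 0.06004 in the GC-rich and the other libraries. For curcumin against AOM/DSS, Aim2 was -0.03877 and Irf2 -0.04426 with a common sum, and in the libraries that are not GC-rich Aim2 was -0.0978, Gsdmd -0.04801, Gsdmc2 0.0344 and Gsdmc 0.007934. For curcumin against control, a common sum gave -0.02331 for Aim2 and -0.03309 for Casp1, quantile normalization -0.01781 for Casp1, and the block with the GC group 0.03801 for Casp4. The libraries that are not GC-rich gave -0.03776 for Aim2 and -0.08108 for Casp1, and the GC-rich ones 0.1904 for Casp4, 0.1748 for Il18, 0.2084 for Gsdmd and 0.00862 for Irak2.

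Leaving out 1 library turned the direction of Nlrc4 (-0.05756 to 0.07959) and Aim2 (-0.1427 to 0.0714) between AOM/DSS and control. Between curcumin and AOM/DSS it did so for Aim2 (-0.05595 to 0.1581), Pycard (-0.1828 to 0.02881), Il18 (-0.02142 to 0.2953), Gsdmd (-0.02866 to 0.2634), Gsdmc2 (-0.3281 to 0.09519), Gsdmc4 (-0.2887 to 0.03156), Gsdmc (-0.2609 to 0.09309), Dfna5 (-0.1857 to 0.139) and Irf2 (-0.02104 to 0.0462). Between curcumin and control it did so for Aim2 (-0.07223 to 0.08976) and Casp1 (-0.1563 to 0.1293).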
